A study of Mus musculus with 4 samples.

Results

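The genes of the mouse histone clusters Hist1, Hist2, Hist3 and Hist4 were examined in polyadenylated RNA of 4T07, a cell line from a mouse mammary carcinoma of strain Balb/cfC3H. The members were the 68 genes, of 24421 in the deposited table, whose symbol starts with Hist1h, Hist2h, Hist3h or Hist4. Most are replication-dependent, and a few, such as testis forms and the pseudogene Hist3h2bb-ps, are not. They comprised 6 genes of linker histone H1, 18 of H2A, 19 of H2B, 12 of H3 and 13 of H4. Cluster Hist1 held 54 of them, Hist2 10, Hist3 3 and Hist4 1. The study compared 2 libraries of cells with a control genotype and 2 of cells labelled as overexpressing Six2, a homeobox transcription factor. All cells grew in high-glucose DMEM with calf serum and were lysed 48 h after plating. The labels name no vector, promoter or clone for either cell population, and they do not say whether the replicates were separate cultures, so the spread behind each p-value is that of these libraries and could be technical.

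Most genes make messenger RNAs that end in a poly(A) tail, added downstream of a signal such as AATAAA. Replication-dependent histone messenger RNAs are the known exception: they end just after a conserved stem-loop that the protein SLBP binds and that is processed with the U7 small nuclear RNA, and they accumulate in S phase. Some histone cluster genes can also be read through past the stem-loop to a downstream poly(A) signal, which is known from differentiated and non-dividing cells. Oligo(dT) selection, on which messenger RNA kits rely, therefore leaves out most histone messenger RNA, and the levels below describe the RNA that was recovered after it, not the cells' histone messenger RNA as a whole.

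The deposited values were RPKM, reads scaled to gene length and to the library's total. Library depth was 43110985 and 41881864 reads in control replicates 1 and 2, and 49910629 and 81524250 reads in Six2-labelled replicates 1 and 2. Six2 itself was at 0, 0, 0.0285 and 0 RPKM in that order, so the labelled overexpression was not visible in the table. The epithelial keratins Krt8 and Krt18 were between 389 and 1059 RPKM, while the epithelial adhesion gene Epcam stayed under 1 RPKM, from 0.0833 to 0.720. The epithelial cadherin gene Cdh1 separated the groups, with 14.6 and 8.40 RPKM in the control libraries and 0.186 and 0.103 RPKM in the Six2-labelled libraries. Its log2 difference was -3.40 ± 0.27 (SE), with a limma-trend adjusted p of 0.0592, which did not pass. With median-ratio scaling it passed, at 0.0477. It did not pass with no filter on low values or with voom, where 0 of all genes were called. The part of Cdh1 in the histone levels was not tested. The leukocyte marker Ptprc was at 0 to 0.00433 RPKM and the macrophage marker Adgre1 at 0 in every library. Of 6 fibroblast markers, Lum and Thy1 were at 0 throughout and Pdgfra was the highest, at 4.78 to 8.85 RPKM. Of 4 endothelial markers, Kdr was at 0 throughout and Tie1 was the highest, at 0.990 to 1.47 RPKM.

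The stem-loop is shown first because it is the feature that sets this family apart from other messenger RNAs. The pattern of GG, any 2 bases, CTTTT, any base, AG, any base and GCC, searched on the transcript strand, was found in the GENCODE M21 transcripts chosen for 41 of the 68 members. Over the whole annotation 52 of 55341 genes, or 0.0940%, held it in some transcript, and 42 of those 52 were members. Each line below gives 26 bases of transcript with the stem-loop in capitals. The first 4 were chosen for H1, H2A and H3 forms, and the last 2 for the H4 forms.
Hist1h1c: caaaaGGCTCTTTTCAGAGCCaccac
Hist3h2a: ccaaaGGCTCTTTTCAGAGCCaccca
Hist1h3c: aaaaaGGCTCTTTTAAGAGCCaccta
Hist2h2ac: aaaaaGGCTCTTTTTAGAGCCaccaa
Hist1h4d: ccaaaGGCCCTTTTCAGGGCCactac
Hist1h4i: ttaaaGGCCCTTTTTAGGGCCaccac
The stem of Hist1h1c and Hist3h2a, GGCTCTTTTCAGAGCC, was the commonest, with 25 members and no H4 gene among them. The form of Hist1h3c occurred in 6 members. The forms with a GGCCC stem were found in 9 members, all of them H4 genes: 7 had the form of Hist1h4d and 2, Hist1h4i and Hist2h4, that of Hist1h4i. Hist2h2ac was the single member with its form.

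The poly(A) signal was searched as AATAAA or ATTAAA on the transcript strand within the last 50 bases of the same transcripts. It was present in 17 members, and 11 of these also held the stem-loop letters. The lines below show it in capitals for the 4 best expressed members that hold it, as the signal that would lie at the end of a tailed RNA.
Hist1h1c: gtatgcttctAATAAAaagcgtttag
Hist3h2a: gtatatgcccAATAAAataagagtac
Hist1h4i: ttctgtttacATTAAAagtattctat
Hist2h2be: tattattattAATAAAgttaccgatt
In Hist1h1c the annotated transcript of 1560 bases ran on for 840 bases after the stem-loop. In Hist3h2a it ran on for 1643 bases of 2146, and in Hist1h4i for 330 of 727. Hist2h2be has an annotated transcript of 2620 bases in which the stem-loop letters were not found.

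Histone cluster genes were near the floor of these libraries. Of the 68 members, 13 were at 0 in every library, beside 7742 of all 24421 genes of the table. With those 13 included, 60 of the 68 were under 1 RPKM in every library. A level of 1 RPKM in at least 2 libraries was reached by 6 of the 68, beside 10654 of all 24421 genes. The median of the members' mean levels was 0.210 RPKM. Together they took 1623 and 1058 reads in control replicates 1 and 2 and 1626 and 2412 in Six2-labelled replicates 1 and 2. That was 0.00376%, 0.00253%, 0.00326% and 0.00296% of the reads. For comparison on the same per-length scale, H2afz, the replication-independent H2A.Z gene outside the clusters, had 451, 482, 622 and 613 RPKM, whereas the summed level of all 68 cluster genes was 55.6, 39.3, 45.7 and 42.4 RPKM. With 0 reads on a length of 1 kb, the upper limit for the level, taken as 3 expected reads, was 0.0696, 0.0716, 0.0601 and 0.0368 RPKM. These limits take in counting error alone. They are higher for gene models shorter than 1 kb, as those of most members above 0 were.

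**Figure D1:**
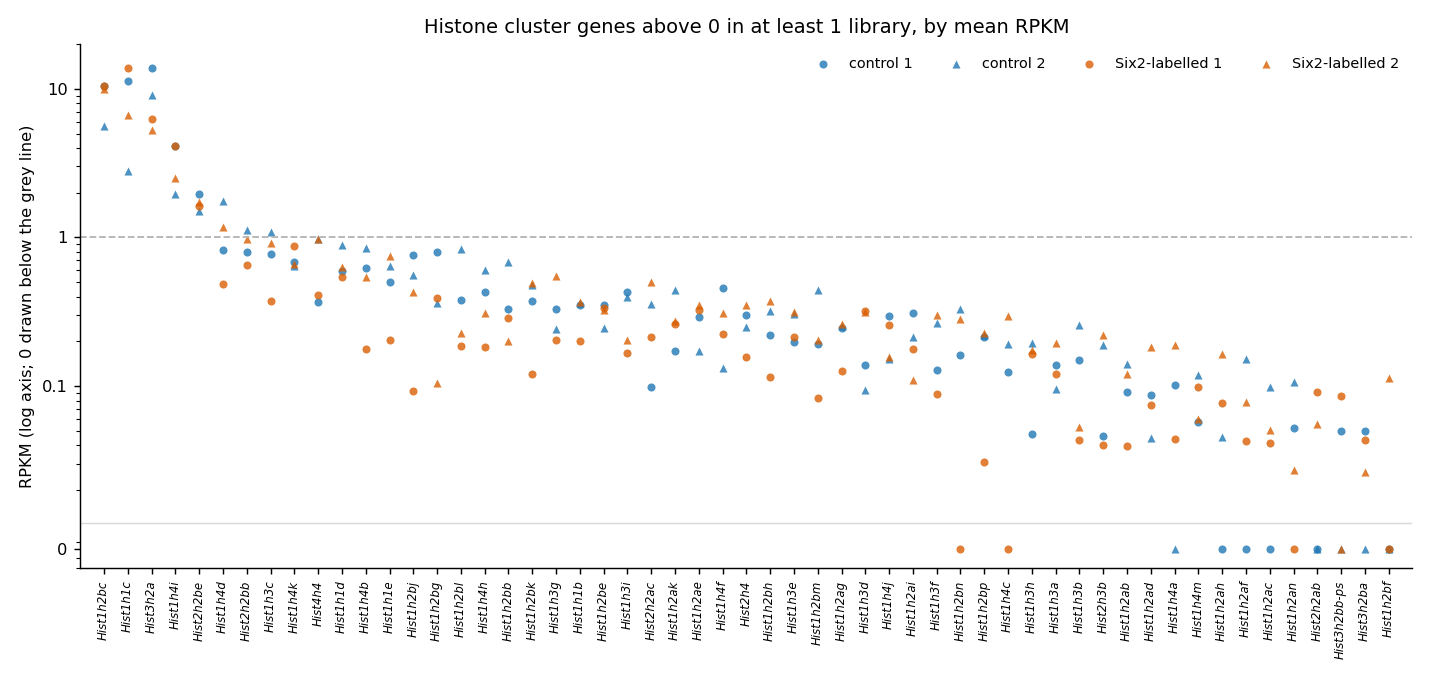
RPKM of the 55 histone cluster genes above 0 in at least 1 library, on a log axis and ordered by mean, with circles for replicate 1, triangles for replicate 2, blue for control and orange for Six2-labelled libraries; the dashed line is 1 RPKM. The first 6 genes are those tested, and the other 49 lie mostly below 1 RPKM.

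A few members held most of the signal. Hist1h2bc, Hist1h1c and Hist3h2a made up 57.6% of the summed mean RPKM, and the 6 members that reached 1 RPKM in at least 2 libraries made up 70.6%. Those 6 were tested, and they came from 3 clusters and from H1, H2A, H2B and H4, with no H3 gene among them. In order of mean level they were Hist1h2bc at 9.08, Hist1h1c at 8.66, Hist3h2a at 8.60, Hist1h4i at 3.18, Hist2h2be at 1.70 and Hist1h4d at 1.06 RPKM. The first 3 cannot be placed in order, since each ranged over several RPKM between libraries. The other 49 members above 0 had means of 0.0285 to 0.884 RPKM, and 40 of them had fewer than 50 reads over the 4 libraries together.

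No tested member passed the comparison of Six2-labelled with control libraries. The limma-trend fit called 0 of the 6 at an adjusted p under 0.05, where 0.113% of all 10654 genes tested were called. At an unadjusted p under 0.05 it gave 1 of the 6, Hist3h2a, which was lower, against 17% of genes tested, 7.36% higher and 9.66% lower. Separately, limma-voom on the recovered reads called 0 of the 6, with 1 at an unadjusted p under 0.05. Voom called 0 of all 10653 genes it fitted, with 1813 at that unadjusted threshold. Those are the background of each voom count below too. The median log2 difference of the 6 was 0.05, and that of the genes tested was -0.01, with 5100 of the 10654 above 0. Here and below, log2 differences are Six2-labelled minus control on the log2(RPKM + 1) scale, which understates changes of low genes. In these bulk samples, fewer cells with a histone RNA and less of that RNA per cell cannot be told apart.

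**Figure D2:**
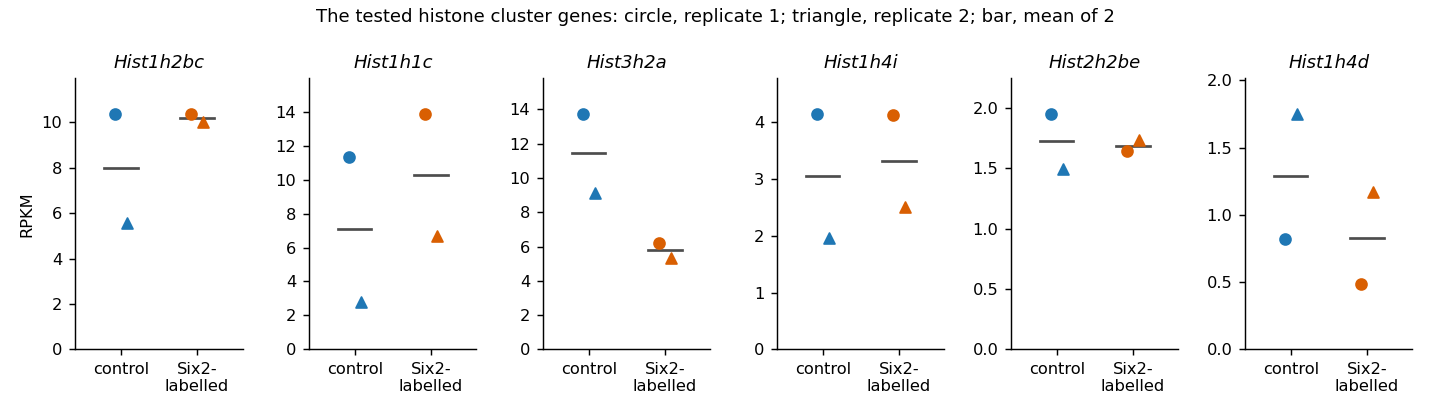
RPKM per library of the 6 tested members, 1 panel each with its own axis from 0, control in blue and Six2-labelled in orange, circle for replicate 1, triangle for replicate 2 and a bar for the mean of 2. Hist3h2a is the panel in which the groups stand apart; in the other 5 the groups overlap.

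Linker histone H1 binds the DNA entering and leaving the nucleosome. Hist1h1c, which encodes H1.2 and lies on chromosome 13 from 23738808 to 23740367 of GRCm38 in 1 exon, was at 11.3 and 2.80 RPKM in control replicates 1 and 2 and at 13.9 and 6.65 RPKM in Six2-labelled replicates 1 and 2. Replicate 1 was the higher library in each group, and the groups overlapped. The means were 7.06 ± 6.03 (SD, n = 2) and 10.3 ± 5.11 RPKM (SD, n = 2), and the log2 difference was 0.64 ± 0.67 (SE), with a limma-trend adjusted p of 0.694. Without control replicate 2 the difference was -0.21, and without control replicate 1 it was 1.49. The other H1 genes above 0 were far lower. Hist1h1d, for H1.3, had 0.598, 0.892, 0.542 and 0.632 RPKM, Hist1h1e, for H1.4, had a mean of 0.526 and Hist1h1b, for H1.5, a mean of 0.321 RPKM. Hist1h1a and the testis-specific Hist1h1t were at 0 in every library.

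H2A and H2B pair in the nucleosome core. Among the 18 H2A genes, Hist3h2a on chromosome 11 (58954685 to 58956830, 1 exon) stood out at 13.7 and 9.12 RPKM in control replicates 1 and 2 and 6.23 and 5.31 RPKM in Six2-labelled replicates 1 and 2. Each control library lay above each Six2-labelled library, which held for 25.5% of genes tested in this direction. The log2 difference was -0.85 ± 0.22 (SE), and the limma-trend adjusted p of 0.191 did not pass. The control mean of 11.4 ± 3.27 RPKM (SD, n = 2) was 1.98 times the Six2-labelled mean of 5.77 ± 0.650 (SD, n = 2). Leaving out each library in turn gave differences from -1.13 to -0.58. The gene overlaps the annotated span of Trim17, whose own level was 0.0119 to 0.0711 RPKM. Without a stated strand setting, reads of overlapping genes cannot be told apart. The next H2A genes, Hist2h2ac, Hist1h2ak and Hist1h2ae, had means of 0.292, 0.289 and 0.284 RPKM, each on 33 to 36 reads in all. The summed H2A level was 15.1, 11.1, 7.70 and 7.49 RPKM and was mostly that of Hist3h2a.

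Hist1h2bc, an H2B gene with 2 annotated exons from 23684199 to 23692908 on chromosome 13, was at 10.4 and 5.58 RPKM in the control libraries and at 10.4 and 10.0 RPKM in the Six2-labelled libraries. Control replicate 2 was the low library, and the other 3 lay close together. The log2 difference was 0.37 ± 0.28 (SE), with a limma-trend adjusted p of 0.579. Without control replicate 2 it was -0.02. Hist2h2be, an H2B gene on chromosome 3 from 96221119 to 96223738, varied least of the 6, at 1.95 and 1.496 RPKM in the control libraries and at 1.64 and 1.73 RPKM in the Six2-labelled libraries. Its log2 difference was -0.02 ± 0.14 (SE), with a limma-trend adjusted p of 0.968, and it turned to 0.01 with median-ratio scaling, which moved the median of the genes tested by 0.04. Hist2h2bb, with 0.7999, 1.11, 0.650 and 0.970 RPKM, and Hist1h2bj, with 0.757, 0.557, 0.0934 and 0.429 RPKM, were below the filter.

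H3 and H4 form the central tetramer of the nucleosome. No H3 gene was tested: the highest, Hist1h3c, had 0.773, 1.09, 0.376 and 0.920 RPKM, and Hist1h3g, Hist1h3i and Hist1h3e had means of 0.331, 0.299 and 0.257 RPKM. The 12 H3 genes summed to 2.38, 3.14, 1.73 and 3.24 RPKM. In that sum both libraries numbered 2 were above both numbered 1. Of the H4 genes, Hist1h4i (chromosome 13, 22040636 to 22041362, minus strand) was the highest at 4.14 and 1.96 RPKM in the control libraries and at 4.13 and 2.50 RPKM in the Six2-labelled libraries. Replicate 1 was the higher library in each group and the groups overlapped, with a log2 difference of 0.12 ± 0.35 (SE) and a limma-trend adjusted p of 0.901. Leaving out libraries in turn took that difference from -0.28 to 0.52.

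Hist1h4d, another H4 gene (chromosome 13, 23581598 to 23582735), was higher in replicate 2 in each group, unlike Hist1h4i. It was at 0.819 and 1.75 RPKM in the control libraries and at 0.490 and 1.17 RPKM in the Six2-labelled libraries, on 84 reads in all. The log2 difference was -0.32 ± 0.30 (SE), with a limma-trend adjusted p of 0.663. Hist1h4k, with a mean of 0.716, and Hist4h4, with 0.370, 0.979, 0.411 and 0.978 RPKM, followed. The H4 genes encode the same protein from many loci, and 11 of the 13 were under 1 RPKM in every library.

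Over all members above 0, the groups did not overlap in 4 genes that were higher and 10 that were lower in the Six2-labelled libraries, shares of 55 that stand beside 18.4% and 24.5% among all 16679 genes above 0. Of these 14, Hist3h2a had 873 reads in all and the others had 4 to 52 reads. The summed RPKM was 47.5 ± 11.6 (SD, n = 2) in control and 44.1 ± 2.39 (SD, n = 2) in Six2-labelled libraries. The difference of -3.40 RPKM was smaller than the pooled SD of 8.36. Leaving out control replicate 1 made it 4.79, leaving out control replicate 2 made it -11.6, and it stayed below 0 without either Six2-labelled library.

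The low members did not follow the library order of the high ones. The 49 members below the filter summed to an RPM (reads scaled to the library total alone) of 7.35 and 8.93 in control replicates 1 and 2 and 5.19 and 8.37 in Six2-labelled replicates 1 and 2. Among the 38 of them above 0 in all 4 libraries, replicate 2 was above replicate 1 in both groups for 22, where 17.7% of the 2999 genes of the same kind in the table had that order. The reverse held for 6 of the 38, against 48.6% of those genes, and Six2-labelled replicate 1 was the lowest library for 21, against 20.3%. Among the 6 tested members the counts were 1 and 4, beside 39.7% and 43.2% of genes tested. The labels do not tie replicate numbers across groups, and several low members share sequence, so these counts are descriptions and not tests. Hist1h2bp, among the 22, had 0.215, 0.222, 0.0310 and 0.228 RPKM and was chosen after its values were seen.

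RNAs known to carry no poly(A) tail varied between the libraries too. Rmrp, the RNA of the RNase MRP complex, had 2.02, 7.73, 0.947 and 4.59 RPKM, and Rpph1, the RNA of RNase P, named after its values were seen, had 0.428, 1.18, 0.185 and 0.830 RPKM. Both had the order of Hist1h4d, with Six2-labelled replicate 1 lowest and control replicate 2 highest. Of the same list, Malat1, a nuclear RNA with a genomically encoded A-rich tract near its end, had 37.1, 25.1, 34.1 and 23.9 RPKM. Rnu73b had 2.94, 1.68, 4.80 and 5.87 RPKM, an order unlike either. Terc, the telomerase RNA, also named after its values were seen, had 0.234, 0.120, 0.606 and 0.371 RPKM. Its extremes were those of Rmrp swapped, with Six2-labelled replicate 1 highest and control replicate 2 lowest. In Terc each Six2-labelled library lay above each control library, which held for 18.4% of all 16679 genes above 0. Recovered reads were few, at 4, 2, 12 and 12 for Terc and 6, 16, 3 and 22 for Rpph1. These read numbers may be too low by a whole factor. Summed S phase genes were at 1815, 1956, 2002 and 2175 RPKM and summed mitosis genes at 1066, 1292, 1177 and 1432 RPKM. What part recovery of untailed RNA or the share of cycling cells had in the members' levels was not tested.

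**Figure D3:**
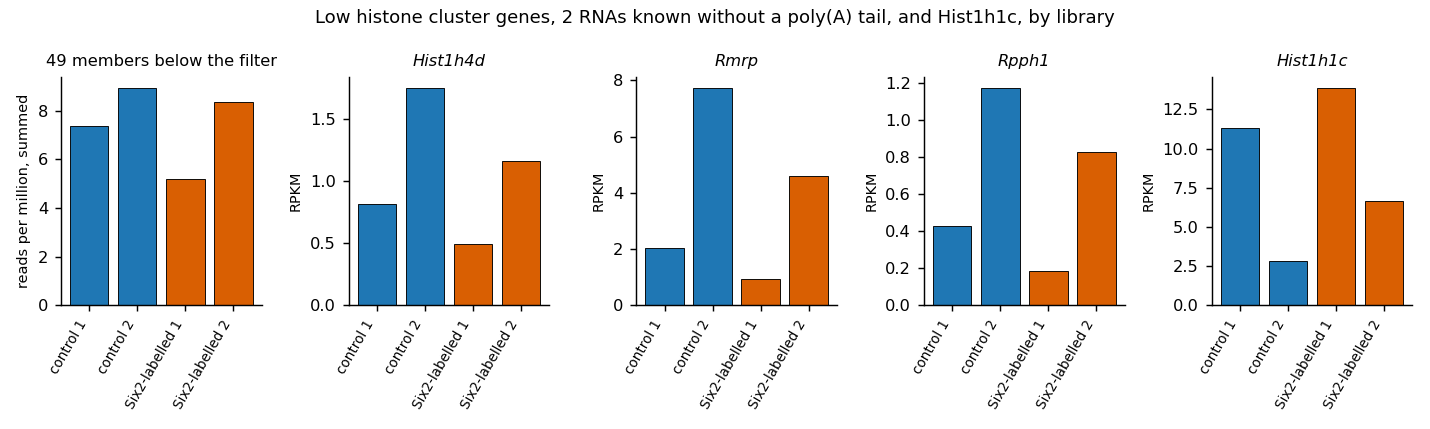
Bars from 0 for each of the 4 libraries, control in blue and Six2-labelled in orange: summed RPM of the 49 low members, then RPKM of Hist1h4d, Rmrp, Rpph1 and Hist1h1c. In the first 4 panels Six2-labelled replicate 1 is the lowest and control replicate 2 the highest; in the Hist1h1c panel the order is the reverse.

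The annotated 3′ ends of the tested members and the rest were compared as a description. Of the 41 members with the stem-loop letters, 21 had transcripts that ran on for more than 100 bases after them and 20 did not. The tested members with a stem-loop, Hist1h1c, Hist3h2a, Hist1h4i and Hist1h4d, were all among the 21, and 0 of the 20 short ones were tested. The median level was 0.265 RPKM in the longer and 0.132 RPKM in the shorter set. The 17 members with a poly(A) signal included 4 of the tested 6. The other 2 were Hist1h2bc and Hist1h4d. Not all members with a signal were high: 13 of the 17 were under 1 RPKM in every library, 4 of these at 0 throughout. Of the 51 members without it, 47 were under 1 RPKM in every library, 9 of these at 0 throughout, and 2 were tested. The median level was 0.265 RPKM with the signal and 0.195 RPKM without it. The annotation records where RNA ends have been seen, so these features are not independent of expression in other tissues.

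The gene length that the authors used matters for these levels. From the RPKM steps it was 508 bases for Hist3h2a, 725 for Hist1h1c, 403 for Hist1h4i and 368 for Hist1h4d, whereas the stem-loop ends at base 503, 720, 397 and 368 of the GENCODE transcript. Those lengths lie within 6 bases of the transcript counted up to the end of the stem-loop. If the authors' gene models share the start sites used here, reads from further downstream were not counted in the deposited values. For Hist2h2be the length used was 2618 bases, close to the annotated 2620, and for Hist1h2bc it was 774 of 1156 bases.

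Sequence shared between members also bears on what was counted. The 9 members at 0 in every library with more than 90% of their 50-base stretches found in another gene's transcripts were Hist1h2ao, Hist1h2ap, Hist1h2bq, Hist1h2br, Hist1h4n, Hist2h2aa1, Hist2h2aa2, Hist2h3c1 and Hist2h3c2. Only 3 members above 0 were past that share. The other 4 members at 0 shared 0 to 38.2%, and they were Hist1h1a and the testis genes Hist1h1t, Hist1h2aa and Hist1h2ba. The median share was 96.0% in the 13 members at 0, 24.9% in the 6 tested and 54.8% over all 68. Across the 68 genes, which are not independent, Spearman's rho between the share and the mean RPKM was -0.42. The handling of reads that match several genes is unknown here, so a 0 in these copies does not show that they were silent, and its part in the order of levels was not tested.

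**Figure D4:**
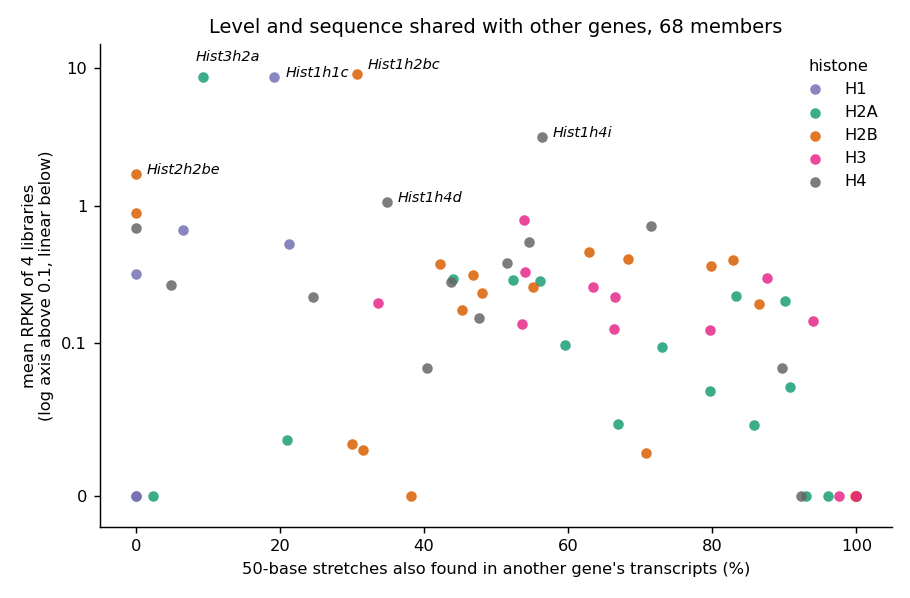
Mean RPKM of the 68 members (log axis above 0.1, linear below) against the percentage of 50-base stretches of their transcript that also occur in another gene's transcripts, coloured by histone. The 6 tested members are named; of these, Hist1h4i has the highest share at 56.3%, and 9 of the 13 members at 0 lie beyond 90%.

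Many H2A and H2B genes lie head to head and share the DNA between their start sites. There were 13 such pairs with start sites at most 500 bases apart, and in none were both genes tested. Hist1h2bc had 1559 reads in all and its partner Hist1h2ac, 251 bases away, had 5. Hist2h2be had 967 and Hist2h2ac, 239 bases away, had 33. Hist3h2a had 873 and the pseudogene Hist3h2bb-ps, 173 bases away, had 3. In the 3 pairs that hold a tested gene, most of the counted reads were on 1 side. The partner was below the filter in each, so this contrast follows in part from how the pairs were chosen. The gene lengths used differ, and per length Hist2h2be and Hist2h2ac had means of 1.70 and 0.292 RPKM. Hist1h2ac and Hist2h2ac shared 66.9% and 44.0% of their 50-base stretches with other genes' transcripts. The handling of such reads is unknown here. In the pair Hist1h2ae and Hist1h2bg, 176 bases apart, each gene had 36 reads. The partners without a tested gene are named for these contrasts, after their values were seen.

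The start sites of Hist1h1c and Hist3h2a are shown as the member that varied most between libraries and the member whose groups stood apart. Each line gives the 250 bases before the RefSeq start site, 5′ to 3′ on the gene's strand in GRCm38.p6, at chr13:23738557-23738806 for Hist1h1c and chr11:58954435-58954684 for Hist3h2a. Capitals mark CCAAT (reverse ATTGG), the octamer ATTTGCAT (reverse ATGCAAAT) and the H1 element AAACACA on either strand; TATAAA was searched too.
Hist1h1c: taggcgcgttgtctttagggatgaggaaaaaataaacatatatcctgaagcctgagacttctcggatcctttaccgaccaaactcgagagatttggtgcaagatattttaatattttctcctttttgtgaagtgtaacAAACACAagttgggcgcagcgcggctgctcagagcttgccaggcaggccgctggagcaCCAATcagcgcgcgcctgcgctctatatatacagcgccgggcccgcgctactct
Hist3h2a: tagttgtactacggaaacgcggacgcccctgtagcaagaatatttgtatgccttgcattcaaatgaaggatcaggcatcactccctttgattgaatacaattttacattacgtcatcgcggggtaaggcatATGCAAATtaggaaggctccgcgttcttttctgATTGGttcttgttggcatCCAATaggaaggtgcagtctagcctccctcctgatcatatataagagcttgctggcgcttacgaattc
Windows of the same length were matched by symbol for 61 of the 68 members. CCAAT was in 50 of the 61, or 82.0%, against 33.8% of all promoter windows. TATAAA was in 29, or 47.5%, against 12.4%. The octamer was in 13, of which 7 were H2A and 6 H2B genes, or 21.3% against 1.601%, and AAACACA was in 9, including 5 of the 6 H1 genes, or 14.8% against 6.25%. Only 3 of the 12 H4 windows held CCAAT, while each of the H1, H2A and H2B windows did. Genes of a head-to-head pair share most of a window and are counted separately, the motifs do not overlap one another, and a match is a description of the letters.

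The Hist1 cluster spans 21715763 to 23934851 on chromosome 13. Of 54 other genes of the table within that span, 45 were at 0 in every library, beside 7742 of all 24421 genes. Most of the 45 had Vmn1r symbols, of vomeronasal receptor genes, so the count describes which genes lie there. In the span, 4 other genes were tested, Abt1, Hfe, Zfp184 and Zfp322a. None of the 4 was called or reached an unadjusted p under 0.05 in either limma fit. Median log2 differences of all tested genes on the members' chromosomes were -0.06 on chromosome 13, 0.21 on chromosome 3, -0.05 on chromosome 11 and -0.09 on chromosome 6.

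Genes whose products replace, process or carry histones were well measured, and no listed gene passed. Of the histone variant genes outside the clusters, 10 of 18 in the table were tested. The limma-trend fit called 0 of them, with 2 higher and 1 lower at an unadjusted p under 0.05, and voom called 0. H2afz, whose 4 values stand above, had a log2 difference of 0.41 ± 0.09 (SE; limma-trend adjusted p 0.167). H2afj, which encodes H2A.J, had 22.3, 20.4, 12.9 and 10.7 RPKM. Each control library lay above each Six2-labelled library, as in Hist3h2a, with a log2 difference of -0.81 ± 0.13 (SE; limma-trend adjusted p 0.124). H3f3b, for H3.3, had 660, 518, 534 and 511 RPKM. H1f0, the replication-independent linker histone gene, named after its values were seen, had 620, 391, 607 and 491 RPKM, and replicate 1 was the higher library in each group, as in Hist1h1c.

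Histone messenger RNA processing and cap, tail and decay factors were measured in 28 tested genes, of which 21 had a log2 difference above 0, beside 5100 of the 10654 genes tested. Of the 28, 0 were called, with 2 higher and 1 lower at an unadjusted p under 0.05 and 0 called by voom. At that unadjusted threshold 7.36% of all genes tested were higher and 9.66% lower, which is the background of the chaperone and S phase counts too. Slbp, the stem-loop binding protein gene, named after its values were seen, had 49.1, 58.8, 49.9 and 59.8 RPKM and no difference beyond the spread, at 0.02 ± 0.15 (SE). The poly(A) polymerase gene Papola had 48.5, 52.8, 61.8 and 69.4 RPKM, with a limma-trend adjusted p of 0.230. The cap-binding gene Ncbp2 had 35.2, 34.8, 27.3 and 28.4 RPKM, with a limma-trend adjusted p of 0.211. Srrt, for the cap-linked factor ARS2, had a mean of 109 RPKM and Pabpn1, for the nuclear poly(A)-binding protein, 97.9 RPKM.

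The 27 histone chaperone genes tested gave 0 calls, with 2 higher and 3 lower at an unadjusted p under 0.05 and 0 called by voom. Anp32e, the H2A.Z chaperone gene, had 73.9, 83.1, 117 and 124 RPKM, with a log2 difference of 0.62 ± 0.11 (SE; limma-trend adjusted p 0.135). Hira, for a subunit of the H3.3 deposition complex, had 21.6, 20.8, 15.7 and 16.6 RPKM, with a limma-trend adjusted p of 0.191. Npm1 and Ncl were the most abundant, at means of 965 and 219 RPKM. The 38 S phase genes gave 0 calls, with 5 higher and 0 lower at an unadjusted p under 0.05, 0 called by voom and a median log2 difference of 0.12. Mcm6, of the replicative helicase, had 81.3, 80.0, 115 and 117 RPKM (limma-trend adjusted p 0.127), and E2f1, a transcription factor of S phase entry, 35.0, 31.6, 45.3 and 44.3 RPKM (limma-trend adjusted p 0.176). The S phase genes Pcna and Mcm7 were highest, at means of 378 and 116 RPKM, with log2 differences of 0.09 ± 0.13 and 0.04 ± 0.09 (SE).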

How the data were processed

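RNA-seq of polyadenylated RNA from 2 control and 2 Six2-labelled 4T07 libraries, grouped by their titles, was analysed. The kit was TruSeq Stranded mRNA, per the labels' protocols. The submitters' processing notes list HTSeq 0.8.0 and TopHat2 2.1.1 with Bowtie2, and also Picard 2.9.4, SAMtools 1.5, FastQC 0.11.5 and bcl2fastq 1.8.4, with the builds mm10 and GRCm38. Not given in the sources used here are the annotation, the strand setting and the treatment of reads that match several genes. The authors deposited RPKM values for 24421 genes.

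Read totals, reads and gene lengths were recovered from the RPKM steps, whole within 0.001 reads for 16676 of 16679 genes above 0. For members, the length was required to reach the shortest annotated coding sequence. For other genes a read number may be too low by a whole factor, which the steps do not reveal. limma 3.58.1 in R 4.3.3 fitted log2(RPKM + 1) on group with a variance trend, over 10654 genes that reached 1 RPKM in 2 or more libraries, two-sided, with Benjamini-Hochberg adjustment over all of them and a threshold of 0.05. The fit was tested on simulated data. Alternatives were another pseudocount, other filters, median-ratio scaling, removal of chromosome medians, the replicate block, each library left out, and voom on recovered reads.

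Members and gene lists were chosen with earlier results of these data known. Named genes were Six2, the 4 members of highest mean RPKM of each histone type, the tested members, and from each list the called genes or, where there were none, the 2 with the highest mean RPKM and the 2 with the smallest unadjusted p. Positions and transcripts are from GENCODE M21, promoter windows from RefSeq on GRCm38.p6. The transcript sequences end where the annotation ends them, and the 50-base stretches compare annotated transcripts, not reads. From the lists of cell type markers, 1 gene is not reported here.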

Additional observations from a re-analysis of the deposited data

How the results depend on the processing

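The count of 0 called histone cluster genes was the same under each alternative run except the replicate block, and so were the 0 counts of the variant, machinery, chaperone and S phase lists. The labels do not pair the replicate numbers. Across the genes tested, the difference between replicates 2 and 1 correlated at 0.818 between the groups. With the replicate number as a block, 3 members were called, Hist3h2a (limma adjusted p 0.000417), Hist1h1c (0.0119) and Hist1h4d (0.0407), and the lists gave 5 variant, 11 machinery, 9 chaperone and 19 S phase genes. Over all genes the 12 calls became 4639 with the block, 28 with median-ratio scaling, and 0 with no filter, with 1 RPKM required in all 4 libraries, and with voom. Leaving out a library gave 11 to 68 calls over all genes, the most without Six2-labelled replicate 2. Among log2 differences, Hist2h2be turned from -0.02 to 0.0107 under median-ratio scaling. When each library was left out in turn, ranges that crossed 0 among the genes whose differences were followed were -0.21 to 1.49 for Hist1h1c, -0.0231 to 0.77 for Hist1h2bc, -0.28 to 0.52 for Hist1h4i, -0.14 to 0.10 for Hist2h2be, -0.34 to 0.0112 for H3f3b, -0.18 to 0.48 for H1f0, -0.00915 to 0.15 for Pabpn1, -0.0378 to 0.37 for Npm1, -0.0184 to 0.20 for Pcna, -0.10 to 0.15 for Slbp and -1.40 to 0.13 for Rmrp. Those for Hist3h2a were -1.13 to -0.58 and for Hist1h4d -0.62 to -0.02. The cause of these changes was not tested. The difference in summed RPKM was -2.00 with median-ratio scaling, -5.62 without Hist1h2bc and -11.6 to 4.79 with a library left out. The low members had a median of 25 reads each over the 4 libraries together. With no filter limma called 0 of 55 members, and their smallest limma adjusted p was 0.138. Of the 55, 6 had an unadjusted p under 0.05, beside 2503 of all 16679 genes in that fit.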
